A study of Mus musculus with 12 samples.

Results

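A set of 10 genes of protein folding in the endoplasmic reticulum (ER) were followed in erythroblasts from the spleen of male mice. They were chosen by name: chaperones, disulfide isomerases, a degradation factor and a regulator of the unfolded protein response. The choice was made with earlier results of these data known. All 10 were found among the 30703 genes of the array. The cells were sorted on day 3 after phenylhydrazine, which lyses red cells, so that the spleen makes new ones under stress. Before that the animals ate a diet with adequate or deficient selenium for 3 months. The 4 groups were adequate and deficient proerythroblasts, the earlier stage, and adequate and deficient basophilic erythroblasts, the next stage, with 3 arrays each. All groups received phenylhydrazine, so no unstressed spleen stands beside them, and the labels give no strain, age or genotype. They also do not say whether replicates came from separate animals, so p-values measure the spread between these samples only.

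Proteins that enter the ER are folded there by chaperones and held together by disulfide bonds that isomerases make and reshuffle. When unfolded protein builds up, the sensors IRE1, PERK and ATF6 start the unfolded protein response, in which XBP1 and ATF6 raise the genes of folding and ATF4 raises genes of amino acid supply and stress. Erythroblasts make mostly cytosolic protein, above all hemoglobin, and dismantle the ER as they mature.

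The promoters that held a whole response element are shown first, because such elements are where ATF6, XBP1 and ATF4 are known to act. In the 250 bases before the RefSeq start (GRCm38.p6), the ER stress response element ERSE, CCAAT and CCACG 9 bases apart on either strand, was in 4 of 10 members (Hspa5, Hsp90b1, Pdia6 and Calr). It was in 0.13% of 27025 genes with such a window. ERSE-II, ATTGG and CCACG 1 base apart, was in Herpud1 and in 0.037% of all genes. TGATGCAA, an amino acid response element (AARE) that ATF4 partners with C/EBP proteins to bind, was also in Herpud1 and in 0.918% of genes. TGACGTGG, the UPRE, was in none of the 10 windows and in 0.603% of genes. The short motifs CCAAT, in 9 members, and CCACG, in 7, lie within both ERSE motifs and were common (37.5% and 31% of genes). The members were chosen by name as genes of ER folding, a class that the response is known to raise, so these counts are a description. Only exact matches were counted, so elements that differ by a base are left out. Capitals mark the elements, read 5′ to 3′ on the strand of the gene:
Hspa5, chr2:34772010-34772058, plus strand: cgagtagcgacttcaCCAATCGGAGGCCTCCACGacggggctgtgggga
Hsp90b1, chr10:86705518-86705671, minus strand: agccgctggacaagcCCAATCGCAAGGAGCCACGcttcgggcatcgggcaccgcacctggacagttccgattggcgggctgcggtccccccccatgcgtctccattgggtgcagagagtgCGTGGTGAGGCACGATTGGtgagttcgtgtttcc
Pdia6, chr12:17266476-17266524, plus strand: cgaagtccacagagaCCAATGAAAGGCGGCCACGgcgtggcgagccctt
Calr, chr8:84847060-84847108, minus strand: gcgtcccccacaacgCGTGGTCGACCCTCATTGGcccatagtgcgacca
Herpud1, chr8:94386302-94386402, plus strand: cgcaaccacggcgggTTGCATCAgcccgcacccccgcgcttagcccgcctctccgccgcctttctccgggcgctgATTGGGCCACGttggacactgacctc

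**Figure D1:**
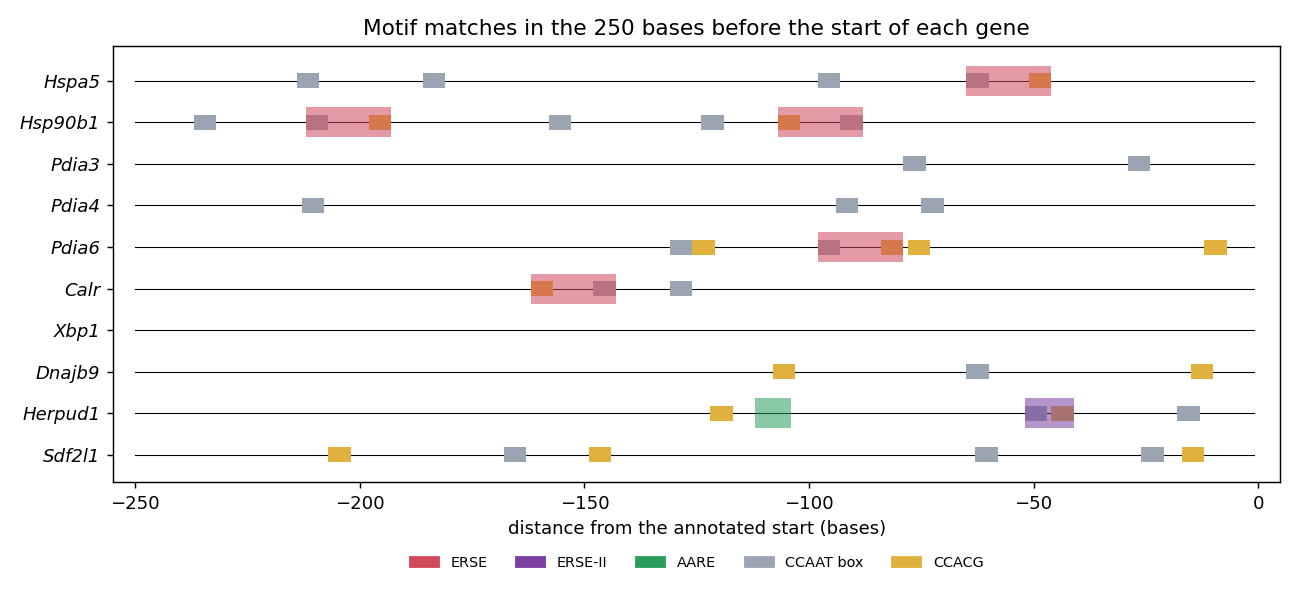
Motif matches in the 250 bases before the annotated start of each member; the horizontal axis is the distance from the start in bases, tall boxes are whole elements and low boxes are the short motifs CCAAT and CCACG. Hsp90b1 held 2 exact ERSE matches, Hspa5, Pdia6 and Calr 1 each, and Xbp1 held no exact match of any motif.

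The array measures each gene as a log2 expression value of 1 feature, and values of different genes are not compared. All 10 members had 1 feature each and were above 5.30, the median of all values, on 12 of 12 arrays. The feature of Pdia4 is also annotated to the microRNA gene Mir704 (chromosome 6, 47803576 to 47803652), which lies inside Pdia4 (47796141 to 47813512). On the same build (GRCm38.p6) the other genes lie on chromosome 2 (Hspa5, 34772090 to 34776529, and Pdia3, 121413902 to 121438687), chromosome 8 (Calr, 84842088 to 84846931, and Herpud1, 94386429 to 94395371), chromosome 10 (Hsp90b1, 86690841 to 86705444), chromosome 11 (Xbp1, 5520641 to 5525993), chromosome 12 (Pdia6, 17266589 to 17284785, and Dnajb9, 44205897 to 44210068) and chromosome 16 (Sdf2l1, 17130138 to 17132383). The Pdia4 feature was kept, and the gene and the microRNA cannot be told apart by it. The spliced form of the Xbp1 transcript cannot be told from the unspliced one by a single value per gene.

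Some arrays stood apart. Replicate 2 of the adequate and of the deficient basophilic erythroblasts had the highest background (4.19 and 4.70, against 3.31 to 3.80 on the other arrays). Background also differed by stage, at 3.31 to 3.53 on proerythroblast and 3.63 to 4.70 on basophilic arrays. The interquartile range of the values was 2.59 to 2.66 on proerythroblast and 2.17 to 2.49 on basophilic arrays. The part of these array differences in the stage effects was not tested. The labels of deficient basophilic replicate 3 conflict: its description gives the earlier stage, its title and cell type the later one. Over the tested genes it correlated at r = 0.991 with deficient basophilic replicate 1 at 0.862 with deficient basophilic replicate 2, and at 0.945 to 0.946 with the deficient proerythroblasts. Erythroblast markers were above the median of all values on all arrays (12 of 12 tested). Of the markers of the earlier and later stage, 4 of 5 progenitor genes were lower and 7 of 7 later erythroblast genes were higher in deficient than in adequate proerythroblasts. The mean log2 value of the later genes was 9.69 to 9.97 in adequate and 11.01 to 11.22 in deficient proerythroblasts, and 11.98 to 12.16 in basophilic erythroblasts. Adequate proerythroblast replicate 3 was high in markers of immune cells: its mean over 9 plasma cell markers was 7.42, against 6.46 and 6.62 in replicates 1 and 2, and over 7 B cell markers 8.13 against 6.92 and 7.17. The rise was broad, with macrophage markers at 7.10 against 6 and 5.79, and T and NK cell markers at 6.40 against 5.42 and 5.41. Neutrophil markers were at 8.13 against 7.41 and 6.88, and megakaryocyte markers were not raised (6.60 against 6.69 and 6.63). Several results that rest on these arrays are given without them as well. Neutrophil markers were lower in basophilic erythroblasts in 8 of 12 genes on the adequate and 7 of 12 on the deficient diet. Their summed linear level was 1800 to 6150 and 2490 to 5310 in adequate and deficient proerythroblasts, and 971 to 1220 and 1210 to 1450 in adequate and deficient basophilic erythroblasts. Their part in the stage effects below was not tested.

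From proerythroblasts to basophilic erythroblasts the disulfide isomerases and the ER form of HSP90 fell on both diets. Pdia4, Pdia3, Pdia6 and Hsp90b1 were lower in basophilic erythroblasts on each diet, and Sdf2l1 on the adequate diet. Hspa5, Calr and Dnajb9 did not pass on either diet. Xbp1 rose on the deficient diet and Herpud1 on the adequate diet. By count, 5 of 10 members fell and 1 rose on the adequate diet, where limma called 54.2% of the 20129 genes tested at an adjusted p under 0.05 (25.6% lower, 28.7% higher). On the deficient diet 4 fell and 1 rose, where 56% of genes were called (24.9% lower, 31.1% higher). The median log2 difference of the members was -0.42 and -0.25, against 0.12 and 0.08 over all genes tested. The members' median depended on the processing. After quantile normalization it was -0.12 on the adequate diet (4 fell, 1 rose), where 3645 of the 20129 genes fell and 2798 rose. On the deficient diet it was then 0.20 (2 fell, 2 rose), where 3374 genes fell and 3851 rose. The members' median was -0.01 on the deficient diet without replicate 2 of both basophilic groups. Without replicate 2 of both basophilic groups 5 fell and 1 rose on the adequate diet (29.3% of genes lower, 38.9% higher), and 3 fell and 1 rose on the deficient diet (26.6% lower, 32.1% higher).

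**Figure D2:**
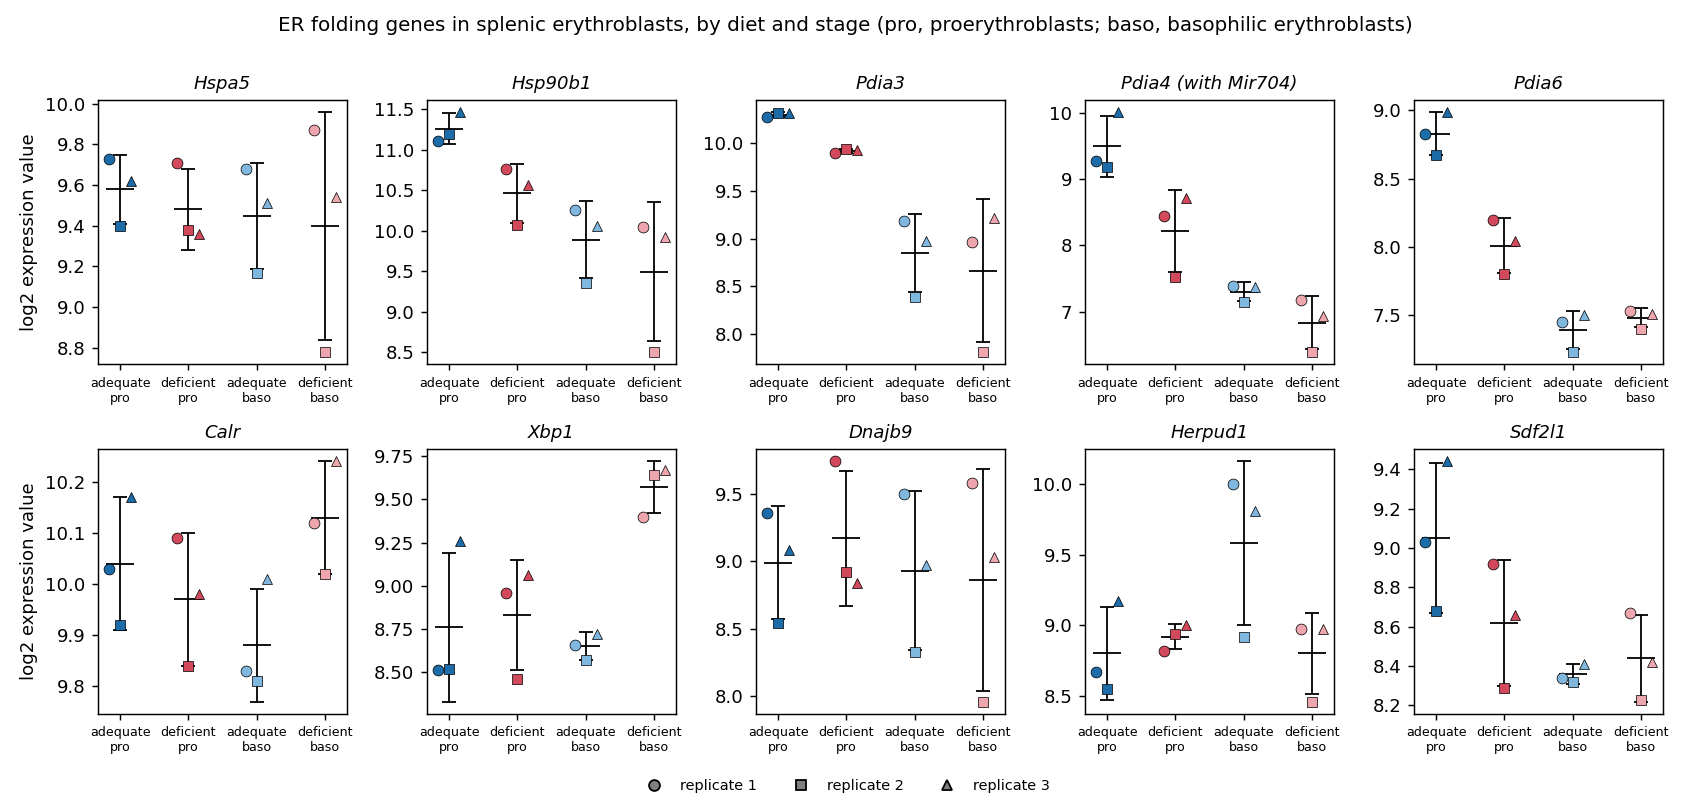
The log2 expression value of each member on each of the 12 arrays, by diet and stage; marker shapes are the replicate numbers, and bars are the mean and SD of 3 arrays. Pdia4, Pdia6, Pdia3 and Hsp90b1 are highest in adequate proerythroblasts, lower in deficient proerythroblasts and lowest in basophilic erythroblasts.

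Among the disulfide isomerases, Pdia4 encodes ERp72, an isomerase with several thioredoxin-like domains. Its values were 9.28, 9.19 and 10.02 in adequate proerythroblasts, 8.44, 7.52 and 8.71 in deficient proerythroblasts, 7.38, 7.14 and 7.37 in adequate basophilic erythroblasts, and 7.17, 6.39 and 6.94 in deficient basophilic erythroblasts. Neither pair of stages overlapped on its diet, nor did the diets in proerythroblasts. Pdia4 fell with stage by 2.20 on the log2 scale on the adequate diet, a 4.59-fold change (SE 0.31, limma adjusted p = 0.000235), and by 1.39 on the deficient diet (SE 0.31, adjusted p = 0.00784).

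Pdia6 encodes the isomerase P5, which also acts on the sensor IRE1. It was 8.83, 8.67 and 8.99 in adequate proerythroblasts and 8.20, 7.80 and 8.04 in deficient ones, and in basophilic erythroblasts 7.45, 7.23 and 7.50 (adequate) and 7.53, 7.40 and 7.51 (deficient). The basophilic arrays of the diets lay in the same range, below every proerythroblast array. Pdia6 fell with stage by 1.44 (SE 0.14, adjusted p = 1.73e-05) on the adequate and by 0.53 (SE 0.14, adjusted p = 0.0136) on the deficient diet. On the deficient diet it did not pass after quantile normalization (-0.13, adjusted p = 0.38).

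Pdia3 encodes ERp57, the isomerase that works with calnexin and calreticulin on glycoproteins. It was tightly grouped in proerythroblasts, at 10.27, 10.32 and 10.32 on the adequate and 9.90, 9.94 and 9.93 on the deficient diet. In basophilic erythroblasts it was 9.18, 8.39 and 8.97 (adequate) and 8.96, 7.81 and 9.22 (deficient), with replicate 2 the lowest on each diet. Pdia3 fell with stage by 1.46 (SE 0.31, adjusted p = 0.0032) and by 1.26 (SE 0.31, adjusted p = 0.0103) on the adequate and deficient diet. The calls of Pdia3 and Pdia4 with stage stayed past the threshold on both diets whichever single array was left out, with adjusted p-values up to 0.0363, and so did that of Pdia6 (up to 0.0491). Without replicate 2 of both basophilic groups the stage difference of Pdia3 on the deficient diet was -0.83 (adjusted p = 0.000305).

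Among the chaperones, Hsp90b1, which encodes GRP94, an ER chaperone of integrins and Toll-like receptors, was 11.11, 11.19 and 11.47 in adequate and 10.76, 10.07 and 10.56 in deficient proerythroblasts. In basophilic erythroblasts it was 10.26, 9.35 and 10.06 (adequate) and 10.05, 8.50 and 9.92 (deficient). Stages did not overlap on either diet, though deficient proerythroblast replicate 2 came within 0.02 of the highest basophilic array of that diet. Hsp90b1 fell by 1.37 (SE 0.37, adjusted p = 0.0129) with stage on the adequate diet and by 0.97 (SE 0.37, adjusted p = 0.0436) on the deficient diet. Without adequate basophilic replicate 2 the first had an adjusted p of 0.0585. The second was -0.48 (adjusted p = 0.153) without deficient basophilic replicate 2, and -0.48 (adjusted p = 0.0547) without replicate 2 of both basophilic groups. It also lost its call without adequate basophilic replicate 3, any adequate proerythroblast array, or deficient proerythroblast replicate 1 or 3, with adjusted p-values from 0.0533 to 0.128, and after quantile normalization (-0.60, adjusted p = 0.0705).

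Hspa5 encodes BiP, the ER member of the HSP70 family, which binds unfolded chains and holds the sensors inactive. It was 9.73, 9.40 and 9.62 in adequate and 9.71, 9.38 and 9.36 in deficient proerythroblasts. In basophilic erythroblasts it was 9.68, 9.17 and 9.51 (adequate) and 9.87, 8.78 and 9.54 (deficient), so the ranges of all 4 groups overlapped. Its stage difference was -0.13 on the adequate diet (95% interval -0.67 to 0.41, adjusted p = 0.662) and -0.09 on the deficient diet (95% interval -0.62 to 0.45, adjusted p = 0.771). These intervals do not reach the fall of Pdia4, and leave room for a change of up to 0.67.

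Calr encodes calreticulin, the soluble lectin chaperone of glycoproteins and a calcium store. It varied little: 10.03, 9.92 and 10.17 in adequate and 10.09, 9.84 and 9.98 in deficient proerythroblasts, and 9.83, 9.81 and 10.01 (adequate) and 10.12, 10.02 and 10.24 (deficient) in basophilic erythroblasts. Its stage differences were -0.16 (95% interval -0.43 to 0.12, adjusted p = 0.296) and 0.16 (95% interval -0.12 to 0.43, adjusted p = 0.293). The second was called higher after quantile normalization (0.48, adjusted p = 0.0252) and was -0.04 after median centring, so its direction depends on the scaling.

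Of the co-chaperones, Dnajb9, which encodes ERdj4, a J-domain partner of BiP, spanned 8.54 to 9.36 and 8.84 to 9.74 in adequate and deficient proerythroblasts, and 8.33 to 9.50 and 7.96 to 9.58 in basophilic erythroblasts. All 4 ranges overlapped, and its stage differences were -0.06 (95% interval -0.97 to 0.85) and -0.31 (95% interval -1.22 to 0.60). Sdf2l1, which encodes a partner of ERdj proteins that prolongs the BiP cycle, was 9.03, 8.68 and 9.44 in adequate proerythroblasts and 8.34, 8.32 and 8.41 in adequate basophilic erythroblasts. It fell by 0.69 (SE 0.21, adjusted p = 0.0192) there, while on the deficient diet, at 8.92, 8.29 and 8.66 against 8.67, 8.23 and 8.42, the difference was -0.18 (adjusted p = 0.456). The call on the adequate diet was lost without adequate proerythroblast replicate 3 (-0.50, adjusted p = 0.0699), replicate 1 (-0.70, adjusted p = 0.051) or adequate basophilic replicate 2 (-0.68, adjusted p = 0.0584). It was also lost after quantile normalization (-0.30, adjusted p = 0.282).

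The regulator and the degradation factor each rose with stage on 1 diet. Xbp1 encodes the transcription factor that IRE1 activates by splicing. It was 8.51, 8.52 and 9.26 in adequate and 8.96, 8.46 and 9.06 in deficient proerythroblasts, 8.66, 8.57 and 8.72 in adequate basophilic erythroblasts, and 9.40, 9.64 and 9.67 in deficient basophilic erythroblasts. All 3 deficient basophilic arrays lay above every other array. Xbp1 rose with stage by 0.74 on the deficient diet (SE 0.21, adjusted p = 0.0172), and its difference on the adequate diet was -0.11 (95% interval -0.58 to 0.35, adjusted p = 0.66). The call was lost without deficient proerythroblast replicate 2 (0.56, adjusted p = 0.0579) and after median centring (0.55, adjusted p = 0.0602). Without deficient basophilic replicate 3, the array with conflicting labels, it was 0.69 (adjusted p = 0.0317).

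Herpud1 encodes HERP, an ER membrane protein of the complex that hands misfolded proteins to the proteasome. It was 8.67, 8.55 and 9.17 in adequate and 8.82, 8.94 and 9.0 in deficient proerythroblasts, 10, 8.92 and 9.81 in adequate basophilic erythroblasts, and 8.97, 8.46 and 8.97 in deficient basophilic erythroblasts. Replicates 1 and 3 of the adequate basophilic erythroblasts were the highest of the 12 arrays, while replicate 2 lay within the range of the proerythroblasts. Herpud1 rose with stage by 0.78 on the adequate diet (SE 0.27, adjusted p = 0.0304), and its difference on the deficient diet was -0.12 (95% interval -0.70 to 0.46, adjusted p = 0.707). The rise was 1.11 without replicate 2 of both basophilic groups (adjusted p = 0.000459). It lost its call without adequate basophilic replicate 1 (0.57, adjusted p = 0.101) or 3 (0.66, adjusted p = 0.091), without adequate proerythroblast replicate 1 (0.72, adjusted p = 0.0864) or 2 (0.66, adjusted p = 0.101), and after median centring (0.57, adjusted p = 0.145). In bulk samples such as these, fewer cells of one kind and less RNA per cell cannot be told apart.

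**Figure D3:**
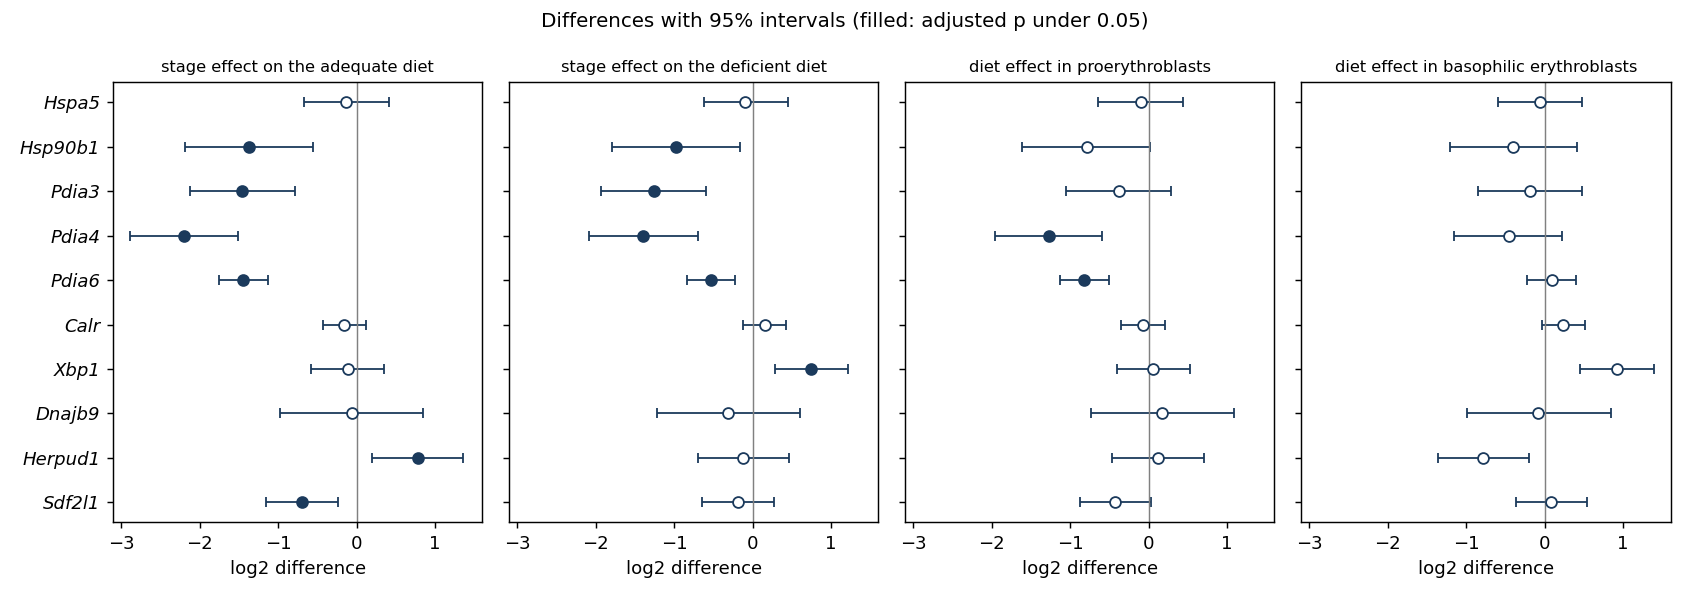
Log2 differences of the 10 members with 95% intervals from the limma fit, for stage (basophilic minus proerythroblast) on each diet and for diet (deficient minus adequate) in each stage; filled points passed an adjusted p of 0.05. The isomerases and Hsp90b1 lie left of 0 with stage, and Pdia4 and Pdia6 do so for diet in proerythroblasts.

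In proerythroblasts a pair of isomerases was lower on the deficient diet. Pdia6 fell by 0.82 (SE 0.14, adjusted p = 0.00761) and Pdia4 by 1.27 (SE 0.31, adjusted p = 0.0442), and neither gene overlapped between the diets. So 2 of 10 members fell and 0 rose, against 4.03% of all genes called (2.77% lower, 1.27% higher). The median of the members was -0.24 and that of all genes 0.02. The remaining estimates were -0.79 for Hsp90b1 (SE 0.37, adjusted p = 0.379), -0.43 for Sdf2l1 (adjusted p = 0.408), -0.38 for Pdia3 (adjusted p = 0.791), and between -0.10 and 0.17 for Hspa5, Calr, Xbp1, Dnajb9 and Herpud1. Hsp90b1 and Pdia3 did not overlap between the diets either, so 4 members lay wholly lower, as did 15.6% of genes.

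Within a stage the replicate numbers of the diets moved together, and with the replicate number as a block within each stage Hsp90b1 also passed (adjusted p = 0.0219), giving 3 members lower where 7.05% of genes were called lower. Without replicate 2 of both basophilic groups, which changes only the error here, Hsp90b1 (adjusted p = 0.0136) and Pdia3 (adjusted p = 0.0173) passed as well, giving 4 lower where 9.38% of genes were called lower. The call of Pdia6 held whichever array was left out (adjusted p up to 0.041). That of Pdia4 held only without deficient basophilic replicate 2 or deficient proerythroblast replicate 3 and was lost without any other single array. Its estimates then ran down to -0.92 without deficient proerythroblast replicate 2 (adjusted p = 0.155) and -1.01 without adequate proerythroblast replicate 3 (adjusted p = 0.147). It was also lost with no filter (adjusted p = 0.0533), quantile normalization (0.0862) and median centring (0.0536).

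The stage markers moved in the same comparison, with progenitor genes lower and later erythroblast genes higher on the deficient diet as given above. Their part in the values of Pdia4 and Pdia6 was not tested. The stage effect on the adequate diet and this diet effect share the 3 adequate proerythroblast arrays. Side by side, they were -1.44 and -0.82 for Pdia6, -2.20 and -1.27 for Pdia4, -1.37 and -0.79 for Hsp90b1, and -1.46 and -0.38 for Pdia3.

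Markers of plasma cells, the antibody-secreting cells, were set beside these values, though markers of other immune cells were high on the same array, as given above. On adequate proerythroblast replicate 3 Jchain, which joins secreted antibodies, was 10.03 against 7.42 and 7.67 on replicates 1 and 2, and Mzb1, an ER co-chaperone of antibody folding, 9.23 against 7.20 and 7.25. Replicate 3 was also the highest of the deficient proerythroblasts, with Jchain at 9.09 against 7.66 and 7.71 and a mean over the plasma cell markers of 7.11 against 6.65 and 6.74. On adequate proerythroblast replicate 3, Sdc1 (6.89) and Tnfrsf17 (5.41) were near the values of the other adequate proerythroblast arrays. Of the 9 plasma cell markers, 7 were above the median of all values on all 3 arrays in each group. Their summed linear level was 921 to 2640 in adequate and 1130 to 1740 in deficient proerythroblasts, and 1300 to 1360 and 1200 to 1240 in adequate and deficient basophilic erythroblasts. The sums include Tent5c, which averaged 7.17 and 8.11 in adequate and deficient proerythroblasts and 9.17 in each basophilic group. By contrast, the stage difference was below 0 for 7 of the 9 markers on the adequate diet and 6 on the deficient diet. Their medians were -0.41 and -0.26. The sums therefore do not compare plasma cell RNA between the stages. By the limma threshold 0 of the 9 were lower and 1 higher on the adequate diet, and 1 lower and 1 higher on the deficient diet. Of all genes 25.6% and 24.9% were lower, and 28.7% and 31.1% higher. Adequate proerythroblast replicate 3 was the highest of its group in Pdia4, Pdia6, Hsp90b1, Calr, Xbp1, Herpud1 and Sdf2l1. Without it the diet effect of Pdia6 was -0.74 (adjusted p = 0.0367), and the stage effects on the adequate diet were -1.94 for Pdia4 (adjusted p = 0.00127), -1.36 for Pdia6 (0.000151), -1.45 for Pdia3 (0.0121) and -1.26 for Hsp90b1 (0.0423). The diet effect of Pdia4 (-1.01, adjusted p = 0.147) and the stage effect of Sdf2l1 (-0.50, adjusted p = 0.0699) did not pass without it.

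In basophilic erythroblasts 0 of 10 members passed for the diet with limma, where 0.0199% of genes did, and 2 members had an unadjusted p under 0.05, as did 6.48% of genes. These were Xbp1, at 0.92 (95% interval 0.45 to 1.39, adjusted p = 0.231), with all 3 deficient above all 3 adequate arrays, and Herpud1, at -0.78 (95% interval -1.36 to -0.20, adjusted p = 0.526). With the replicate number as a block within each stage both passed, Xbp1 at an adjusted p of 0.0232 and Herpud1 at 0.0403, where 1.45% of genes did. Without replicate 2 of both basophilic groups Herpud1 was -0.94 (adjusted p = 0.035), where 0.72% of genes were lower, and Xbp1 0.85 (adjusted p = 0.169). Without deficient basophilic replicate 3, the array with conflicting labels, Herpud1 was -0.86 (adjusted p = 0.493) and Xbp1 0.87 (adjusted p = 0.434). Calr did not overlap between the diets either (0.24, 95% interval -0.03 to 0.52, adjusted p = 0.848), so Calr and Xbp1 lay wholly higher, as did 4.13% of genes. Pdia6 was at 0.09 (95% interval -0.22 to 0.40). Pdia4, Hsp90b1 and Pdia3 were at -0.46, -0.40 and -0.18, with intervals that held 0.

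The diet by stage interaction asks whether the diet effect differed between the stages. It called 0 of 10 members with limma and 0.303% of all genes, and 3 members had an unadjusted p under 0.05, as did 9.15% of genes. Pdia6 came closest, at 0.90 (SE 0.20, adjusted p = 0.0943), being lower on the deficient diet in proerythroblasts and level in basophilic erythroblasts. It passed with the block within each stage (adjusted p = 0.0255, where 2.93% of genes passed), without replicate 2 of both basophilic groups (0.86, adjusted p = 0.0385) and without deficient basophilic replicate 2 alone (0.94, adjusted p = 0.0427). Herpud1 was at -0.90 (SE 0.38, adjusted p = 0.466) and at -1.06 (adjusted p = 0.0437) without replicate 2 of both basophilic groups, where 1.47% of genes were called lower and 2.01% higher. Xbp1 was at 0.86 (SE 0.30, adjusted p = 0.321). So the pattern of Xbp1 and Herpud1, each called with stage on 1 diet only, was not past the threshold as a difference between the diets with all arrays.

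Some members were ordered by replicate number. Hspa5 and Dnajb9 were highest on replicate 1 in all 4 groups, which was so for 4.92% of the genes tested. Replicate 2 was the lowest array in at least 3 of 4 groups for 8 of 10 members, against 24.3% of genes. Both shares are over all genes tested, which had to exceed 5.30 on only 3 arrays. The members exceeded it on 12 of 12, so the sets are not matched in level. Replicate 2 of both basophilic groups also had the highest background, and its part here was not tested. Across the 12 arrays, which fall into 4 groups, Hspa5 and Dnajb9 correlated at r = 0.94, and Pdia4 and Pdia6 at 0.96. Hsp90b1 had r = 0.94 with Pdia3 and 0.92 with Pdia4. Xbp1 was apart from the isomerases (r from -0.39 to -0.22) and nearest Calr (0.75), and Herpud1 had r between -0.31 and 0.39 with every other member. These correlations describe stage, diet and replicate number together.

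**Figure D4:**
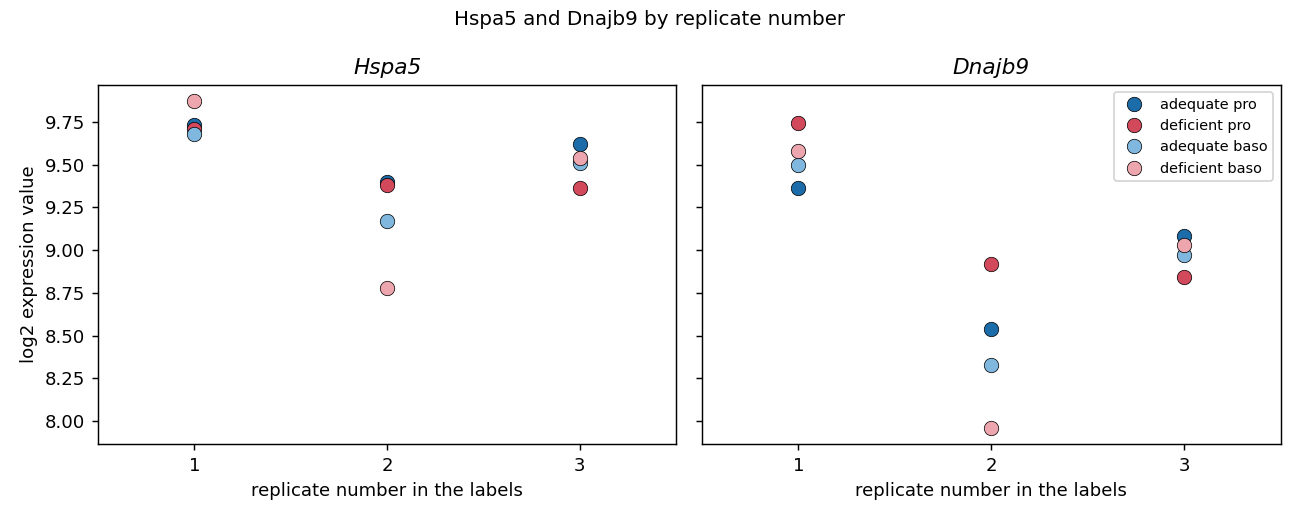
Log2 expression values of Hspa5 and Dnajb9 by the replicate number in the labels, with colours for the 4 groups; each point is 1 array. Replicate 1 is the highest of its group for both genes in all 4 groups.

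The genes whose values over the 12 arrays were most like the mean of the 10 members were Ifi30 (r = 0.975), a lysosomal thiol reductase, Creld2 (0.975), an ER stress-induced isomerase-like protein, the kinase gene Stk4 (0.974), the actin regulator gene Cap1 (0.970) and Spcs2 (0.968), a signal peptidase subunit. Creld2 averaged 9.40 (SD 0.30, n = 3) in adequate and 8.91 (SD 0.21) in deficient proerythroblasts, and 8.35 (SD 0.33) and 8.15 (SD 0.41) in adequate and deficient basophilic erythroblasts. Among single members, the closest gene was Magt1 for Hsp90b1 (r = 0.992), Nsd1 for Pdia3 (0.994), Itgb1bp1 for Pdia4 (0.985), Pgm2 for Pdia6 (0.986) and Pstpip2 for Xbp1 (0.878). For Hspa5, Dnajb9, Sdf2l1, Herpud1 and Calr the closest had r of 0.936, 0.905, 0.922, 0.901 and 0.832.

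Other genes of ER folding were counted beside the members, against the 25.6% and 24.9% of all genes that were lower with stage on the adequate and deficient diet and the 28.7% and 31.1% that were higher. Of 17 other disulfide isomerases and oxidation genes, 9 fell and 0 rose on the adequate diet, and 9 fell and 1 rose on the deficient diet (medians -0.83 and -0.64). P4hb, the founding protein disulfide isomerase, fell (-1.59 and -1.05, adjusted p = 0.000389 and 0.00849) on the adequate and deficient diet. Ero1a, the oxidase that recharges it, fell (-1.74 and -1.70, adjusted p = 0.000997 and 0.00262). Of 17 other ER chaperones and co-chaperones, 9 fell and 2 rose on the adequate diet and 8 fell and 1 rose on the deficient diet. Canx, the membrane lectin chaperone, fell (-1.01 and -0.96, adjusted p = 0.00393 and 0.00801), and so did Sil1, the exchange factor of BiP (-0.92 and -0.77, adjusted p = 0.000434 and 0.00311).

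Of 11 genes of the glycoprotein folding cycle, 9 fell and 0 rose on each diet, and the smallest adjusted p was that of Mogs, the first glucosidase, on the adequate diet (-1.54, adjusted p = 1.67e-05) and of Mlec, an ER lectin, on the deficient diet (-1.22, adjusted p = 0.00428). Of 14 genes of translocation and signal peptide cleavage, 10 fell and 1 rose on the adequate diet, and 7 fell and 1 rose on the deficient diet. Spcs3, a signal peptidase subunit, fell (-1.92 and -1.97, adjusted p = 8.17e-05 and 0.000305), and Sec62, a translocation factor that also serves ER turnover, rose by 1.23 and 0.81 (adjusted p = 0.000173 and 0.00534). The medians of these lists were -0.85 and -0.76 (chaperones), -1.17 and -0.92 (glycoprotein cycle) and -0.92 and -0.67 (translocation). Without replicate 2 of both basophilic groups the medians on the deficient diet were -0.40 (isomerases), -0.28 (chaperones), -0.63 (glycoprotein cycle) and -0.37 (translocation). There 10, 8, 9 and 10 genes of these lists were lower, as were 26.6% of all genes. After quantile normalization the isomerases had 7 and 6 genes lower on the adequate and deficient diet, and the chaperones 6 and 5. The glycoprotein cycle had 5 and 4 lower, and the translocation list 5 and 4. There 3645 and 3374 of the 20129 genes were lower. Higher were 1 and 0 chaperones, 1 and 2 translocation genes and 0 genes of the isomerase and glycoprotein lists, where 2798 and 3851 genes were higher. The medians of these 4 lists were below 0 under that scaling and under median centring.

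The counts of degradation genes were near or below the shares of all genes. Of 18 genes of ER-associated degradation, 4 fell and 3 rose with stage on the adequate diet and 3 fell and 2 rose on the deficient diet. Sel1l, the scaffold of the HRD1 ligase, fell (-1.13 and -0.79, adjusted p = 0.000388 and 0.00707). Of 3 retrieval receptors, Kdelr3 rose by 0.36 on the adequate diet (adjusted p = 0.0346) and Kdelr2 fell by 1.31 on the deficient diet (adjusted p = 0.0387). Of 10 sensors and transcription factors of the response, 3 fell on the adequate diet, among them Atf6b (-1.07, adjusted p = 0.000604), and 2 on the deficient diet, among them Eif2ak3, which encodes PERK (-0.70, adjusted p = 0.0244). None of the 10 rose on either diet with all arrays. On the adequate and deficient diet 2 and 3 rose without replicate 2 of both basophilic groups, where 38.9% and 32.1% of genes rose. The medians of the degradation list (-0.16 and -0.26) and of the sensors (-0.27 and -0.27) were above 0 after quantile normalization, and neither retrieval receptor passed then.

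**Figure D5:**
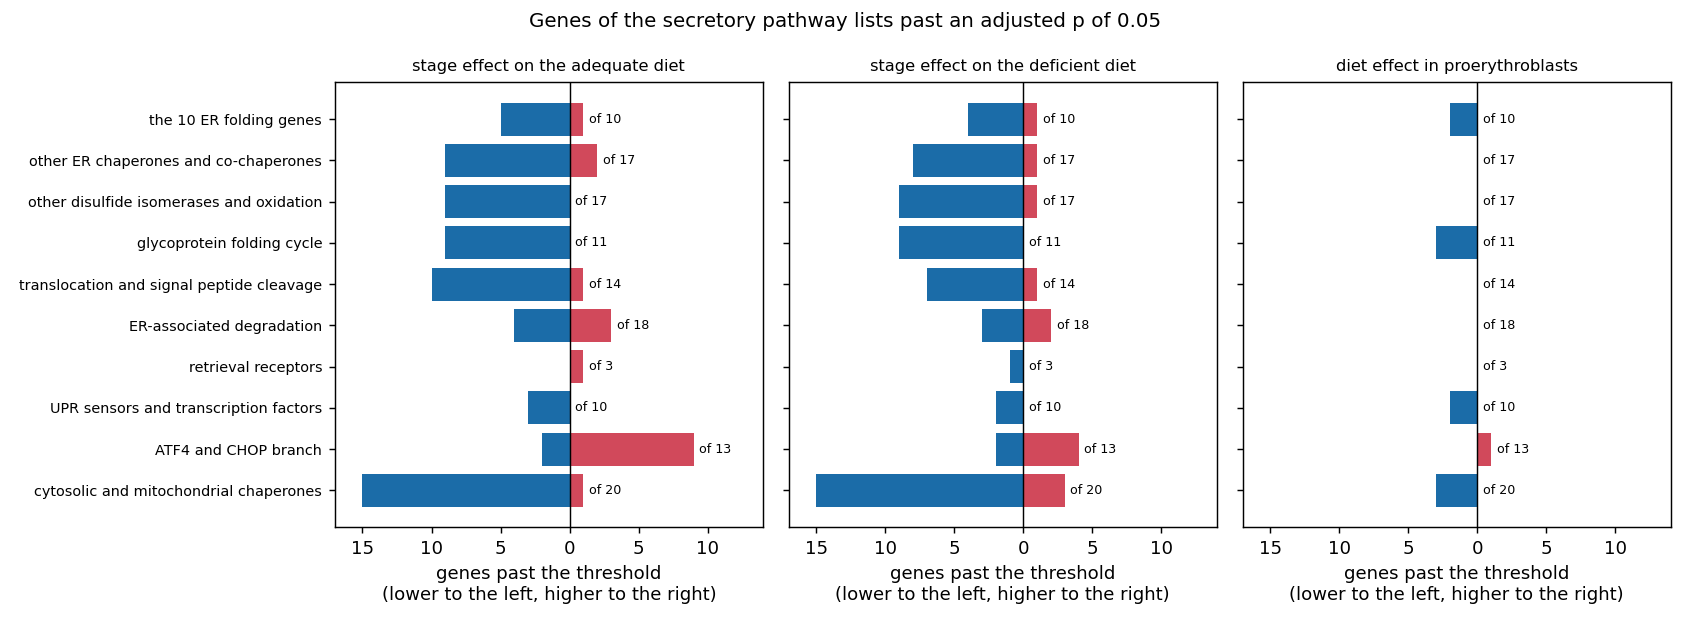
Number of genes past an adjusted p of 0.05 in each list, lower to the left and higher to the right of 0, for stage on either diet and for diet in proerythroblasts; the number tested is printed beside each bar. Lists of folding and translocation lie mostly to the left with stage, and 9 of 13 genes of the ATF4 and CHOP branch lie to the right on the adequate diet.

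For the diet in proerythroblasts, 3 of 11 genes of the glycoprotein cycle fell and 0 rose: Mogs (-1.02, adjusted p = 0.00326), Edem2 (-0.65, adjusted p = 0.0315) and Mlec (-1.04, adjusted p = 0.0342). In this comparison 2.77% of all genes fell and 1.27% rose. Of the sensors and transcription factors, Gtf2i (-1.18, adjusted p = 0.00372) and Creb3l2 (-0.96, adjusted p = 0.00538) fell. None of the 17 other isomerases, 17 other chaperones, 14 translocation genes, 18 degradation genes or 3 retrieval receptors passed. With the block within each stage 5 of the isomerases, 5 of the chaperones and 6 of the glycoprotein cycle genes were lower and 0 higher, where 7.05% of all genes were lower. In that fit 3 degradation genes were higher and 1 lower, where 814 of the 20129 genes were higher. Of the sensors and factors 1 was higher, Ern1, which encodes IRE1 (0.50, adjusted p = 0.0138), and 3 were lower. In basophilic erythroblasts no gene of these lists passed for the diet in the fit of all arrays without a block. With that block 2 degradation genes were higher and 1 lower, and 1 sensor or factor was higher, where 1.45% of genes passed. Without replicate 2 of both basophilic groups 3 degradation genes were higher and 2 lower. There 2 chaperones and 1 translocation gene were higher and 1 glycoprotein cycle gene lower, where 275 genes were higher and 145 lower.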

How the data were processed

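The authors deposited log2 expression values of 72688 features on 12 arrays, made with Affymetrix Expression Console per the submitters' processing notes. The version, background correction, summarisation and normalization are not given in the sources used here. Per the labels' protocols, 5 ng of total RNA per sample was labelled with biotin. Array medians ran from 5.13 to 5.28 in proerythroblasts and from 5.30 to 5.55 in basophilic erythroblasts, and the log2 scale was kept as deposited.

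Of the features, 186 were controls, 31258 named 1 gene and 1492 several (left out, except that of Pdia4), after 1789 symbols were updated through RefSeq (GRCm38.p6). For 441 genes with several features the one with the highest mean was used. The 20129 genes above 5.30 on at least 3 arrays were fitted with limma 3.58.1 in R 4.3.3 (a mean per group over all 12 arrays, eBayes defaults, Benjamini-Hochberg over all genes, threshold 0.05). Python 3.11.15 prepared tables. "Rose" and "fell" mean past that threshold. The fit was tested on simulated data. The number of arrays limits the precision.

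Named were all members, up to 3 genes past the threshold per pathway list, and the genes most alike in pattern. Members and lists were chosen with earlier results of these data known. Deviations from group means of same-numbered arrays correlated at 0.18 to 0.52 (proerythroblasts) and 0.54 to 0.78 (basophilic) between the diets. The main fit did not use the numbers. An alternative fit, the block within each stage, treated them as pairs there, though no label says what they share. Between stages the deviations correlated at -0.16 to 0.28, and that fit did not pair the numbers across stages.

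Promoter windows are from RefSeq (all 10 members matched). Alternatives were no filter, quantile normalization, median centring, a replicate block, trended variance, averaged features and leaving out each array. Chosen after seeing the data were a block within each stage and leaving out both basophilic replicates 2.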

Additional observations from a re-analysis of the deposited data

How the results depend on the processing

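The falls of Pdia3 and Pdia4 with stage on both diets, of Pdia6 with stage on the adequate diet and of Pdia6 with diet in proerythroblasts kept their direction and passed under every alternative run. The other calls each changed under at least 1 alternative, with the values given beside them above, and the cause was not tested. Of the diet effect in proerythroblasts, limma called 812 genes and 2 members; without replicate 2 of both basophilic groups these were 3292 and 4, and with the block within each stage 2234 and 3. No filter, quantile normalization and median centring left 1 member each. Of the diet effect in basophilic erythroblasts, 4 genes and 0 members passed, against 56 genes with quantile normalization, 0 with median centring, 19 with the plain replicate block, 420 (1 member) without replicate 2 of both basophilic groups and 292 (2 members) with the block within each stage. The stage effects fell from 10911 to 6443 genes (adequate) and from 11271 to 7225 (deficient) with quantile normalization. The interaction had 61 genes, against 38 with no filter, 24 with quantile normalization, 700 (2 members) without replicate 2 of both basophilic groups and 589 (1 member) with the block within each stage. The plain replicate block, across all groups, changed no member's call.

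The share of higher calls moved with scaling: 31.4% in the diet effect in proerythroblasts, against 41.8% with quantile normalization and 16.8% with median centring, 50% in basophilic erythroblasts against 60.7% with quantile normalization, 52.9% and 55.5% in the stage effects on the adequate and deficient diet against 26.3% and 36.6% with median centring, and 52.5% in the interaction against 29.2% with quantile normalization. Median centring moved the median of all genes from 0.12 to -0.09 and from 0.08 to -0.12 in the stage effects on the adequate and deficient diet.

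Leaving out 1 array gave 314 to 1807 genes and 1 to 2 members for the diet effect in proerythroblasts, 0 to 289 genes and 0 members in basophilic erythroblasts, 5614 to 14337 genes and 4 to 6 members for stage on the adequate diet, 4955 to 12416 genes and 4 to 5 members on the deficient diet, and 12 to 282 genes and 0 to 1 member for the interaction. The highest gene counts came without deficient basophilic replicate 2, except for stage on the deficient diet (replicate 3). The lowest came without adequate proerythroblast replicate 1 (314), adequate basophilic replicate 2 (5614), deficient proerythroblast replicate 3 (4955, and 12 for the interaction) and deficient basophilic replicate 1 (also 12).

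Directions changed only among values that had not passed. With quantile normalization, the diet effect in basophilic erythroblasts was 0.07 for Hspa5 and 0.01 for Dnajb9. The stage effect was then 0.14 (Hspa5), 0.07 (Calr), 0.27 (Xbp1) and 0.30 (Dnajb9) on the adequate diet, and 0.31 (Hspa5), 0.12 (Dnajb9), 0.33 (Herpud1) and 0.28 (Sdf2l1) on the deficient diet. With median centring, Xbp1 was -0.02 for diet in proerythroblasts and Calr -0.04 for stage on the deficient diet. Without replicate 2 of both basophilic groups, the diet effect in basophilic erythroblasts was 0.11 (Hspa5), 0.01 (Pdia3) and 0.07 (Dnajb9), and the stage effect was 0.01 (Hspa5) and 0.24 (Dnajb9) on the adequate and 0.22 (Hspa5), 0.14 (Dnajb9) and 0.05 (Herpud1) on the deficient diet.

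With 1 array left out, the diet effect in proerythroblasts ran from -0.06 to 0.31 (Xbp1) and -0.11 to 0.36 (Dnajb9). In basophilic erythroblasts it ran from -0.29 to 0.25 (Hspa5), -0.68 to 0.09 (Hsp90b1), -0.46 to 0.24 (Pdia3), -0.44 to 0.37 (Dnajb9) and -0.03 to 0.19 (Sdf2l1). The stage effect on the adequate diet ran from -0.24 to 0.01 (Hspa5), -0.24 to 0.14 (Xbp1) and -0.34 to 0.24 (Dnajb9), and on the deficient diet from -0.32 to 0.22 (Hspa5), -0.67 to 0.14 (Dnajb9) and -0.21 to 0.05 (Herpud1). The interaction ran from -0.19 to 0.35 (Hspa5), -0.08 to 0.62 (Pdia3) and -0.61 to 0.20 (Dnajb9).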

Other observations

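Chaperones outside the ER were counted as well. Of 20 cytosolic and mitochondrial chaperones, 15 fell and 1 rose on the adequate diet, and 15 fell and 3 rose on the deficient diet (limma, adjusted p under 0.05), against 25.6% and 24.9% of all genes lower and 28.7% and 31.1% higher. Hspd1, the mitochondrial HSP60, fell (-2.57 and -1.54, adjusted p = 1.56e-06 and 0.000235) on the adequate and deficient diet, and so did Hspa9, the mitochondrial HSP70 (-2.59 and -1.95, adjusted p = 1.97e-05 and 0.000527). For the diet in proerythroblasts 3 of the 20 fell, where 2.77% of all genes did. Among them was Hsph1, a cytosolic nucleotide exchange factor (-2.12, adjusted p = 0.000255), whose diet by stage interaction was 1.73 (adjusted p = 0.037). After median centring 0 of the 20 passed for the interaction.

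Of 13 genes of the ATF4 and CHOP branch, 9 rose and 2 fell with stage on the adequate diet, where 28.7% of all genes rose, and 4 rose and 2 fell on the deficient diet, near the 31.1% of all genes that rose there. With median centring 7 and 1 rose on the adequate and deficient diet, where 2156 and 3488 of the 20129 genes rose. With quantile normalization 7 and 5 rose, where 2798 and 3851 genes rose. Without replicate 2 of both basophilic groups 10 and 6 rose, where 38.9% and 32.1% of genes did. Ppp1r15a, which encodes GADD34, the phosphatase subunit that restores translation, rose by 2.46 and 0.99 (adjusted p = 1.23e-06 and 0.00139). It was the 1 gene of the list past the threshold for the diet in proerythroblasts (1.48, adjusted p = 0.000711), where 1.27% of all genes rose. Its interaction was -1.47 (adjusted p = 0.0305). After median centring 0 of the 13 passed for the interaction. Ddit3, which encodes CHOP, rose by 1.41 on the adequate diet (adjusted p = 0.000296) and was at 0.25 on the deficient diet (adjusted p = 0.313). Phgdh, the first enzyme of serine synthesis, fell (-1.47 and -1.0, adjusted p = 1.18e-05 and 0.000621).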
